A study of Mus musculus with 4 samples.

Results

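The proximal signalling chain of the B cell receptor was followed in cultured mouse B cells through the RNA of 10 genes: Cd79a, Cd79b, Lyn, Blk, Syk, Btk, Blnk, Plcg2, Pik3ap1 and Vav1. They were chosen by name for their known roles and found by symbol, and all 10 had a value in both RNA libraries, out of 13792 genes listed in each. Naive B cells of C57BL/6 mice were infected with the retrovirus RVKM-Ascl2 or with its insert-free counterpart RVKM-Empty and then grown with anti-IgM and anti-CD40. Ascl2 encodes a DNA-binding protein of the basic helix-loop-helix class, and the comparison asked what its introduction does to the RNA of activated B cells. Anti-IgM binds the B cell receptor itself, so the chain described here was being stimulated in both cultures, and no unstimulated culture was part of the comparison. The ages and number of mice, the length of culture and any purification of infected cells are not stated. There was 1 library per group, so no value has a replicate error and no difference has a test. The series also has 2 germinal centre chromatin samples, not analysed here.

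The B cell receptor is a membrane antibody held together with a heterodimer of CD79A and CD79B, which carry the signal inward. When antigen or anti-IgM clusters receptors, Src family kinases phosphorylate paired tyrosines in the tails of the heterodimer, and SYK docks there and becomes active. SYK then phosphorylates the adaptor BLNK, on which BTK, PLCG2 and VAV1 assemble to start calcium release, diacylglycerol signalling and remodelling of the cytoskeleton. The adaptor encoded by Pik3ap1, known as BCAP, recruits phosphoinositide 3-kinase. These proteins are controlled mainly by phosphorylation, which RNA does not measure.

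The labels and the labelled cell type were checked first. Ascl2 itself had an abundance of 29.4 in the RVKM-Ascl2 library and 0.0809 in the RVKM-Empty library. Values summed to 763932 in the RVKM-Ascl2 library and 750692 in the RVKM-Empty library, and sequencing depth is unknown. All 7 B cell markers used had values in both libraries, among them Ms4a1 at 326 with Ascl2 and 265 with the empty vector, and Cd74 at 4168 and 5742 in the same order. Of 8 T cell markers only Cd2, which mouse B cells also make, had a value, and the T cell receptor subunit genes had none here. No value was 0 in either library, so a gene without a value was not listed, which is not read as absence of its RNA. Of 8 myeloid markers 7 were measured, from 1.06 (Csf1r) to 21.4 (Lyz2) with Ascl2 and from 0.780 (Csf1r) to 16.2 (Cd68) with the empty vector, and their summed level was 58.9 in the RVKM-Ascl2 library and 52.8 in the RVKM-Empty library. Of 5 stromal markers 3 were measured, summing to 5.42 with Ascl2 and 2.73 with the empty vector. In a bulk library, fewer cells of a type and less RNA per cell cannot be told apart.

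All 10 members lay above the median gene (10.2) in both libraries and none differed by 1.5-fold. Levels ran from 24.9 for Lyn to 626 for Cd79b in the RVKM-Ascl2 library, and from 24.1 for Lyn to 748 for Cd79b in the RVKM-Empty library. Each log2 ratio sets the Ascl2 value over the Empty value after adding 1 to both. The median over the 10 members was 0.01, against -0.01 over the 12283 genes that reached 1 in either library. Of the members 5 had a ratio above 0 and 5 below, and 5 of 10 lay within 0.1 of 0, as did 26.4% of all these genes. No member passed 1.5-fold upward with Ascl2 and none downward, where 5.01% of all these genes were higher and 4.31% lower. At 2-fold the background was 1.53% higher and 0.716% lower. With 10 genes and shares this small, a count of 0 is not read as particular to the chain. All members exceeded 20 in both libraries. Among the 4887 genes that reached 20 in at least 1 library, 4.4% were at least 1.5-fold higher and 3.79% at least 1.5-fold lower. The share within 0.1 of 0 was not computed for these 4887 genes, so the 5 of 10 members is not read as particular to the chain either.

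**Figure D1:**
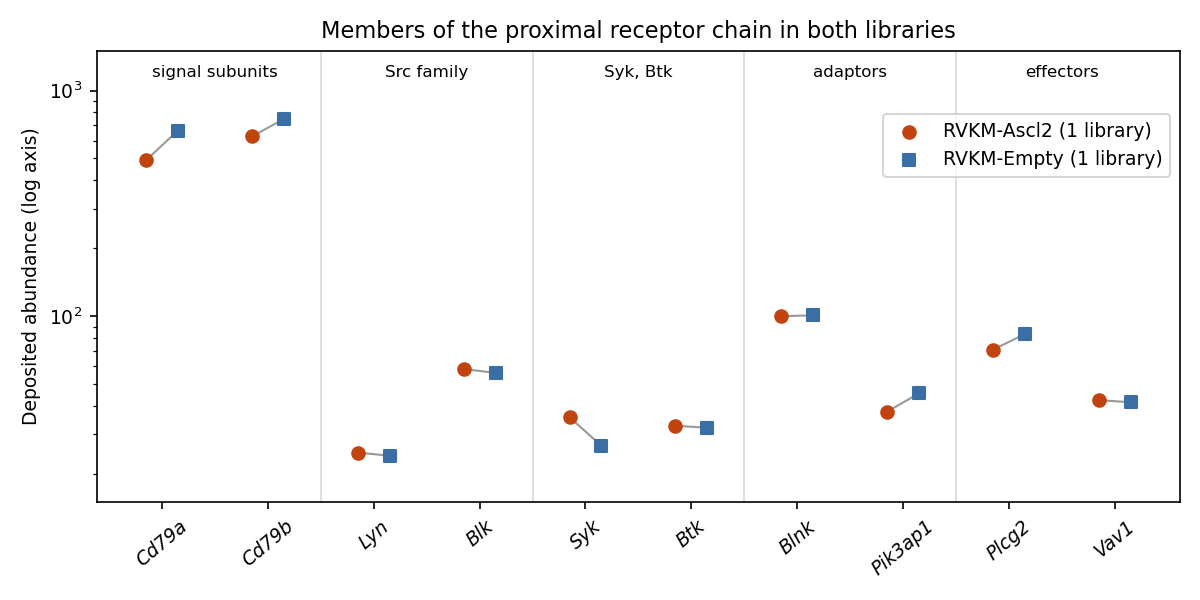
Abundance of the 10 members (log axis) in the RVKM-Ascl2 library (circles) and the RVKM-Empty library (squares), 1 library each, ordered by role; a line joins the values of a gene. Cd79a and Cd79b lie far above the rest, Syk is the member with the largest excess in the RVKM-Ascl2 library (35.7 against 26.7), and Cd79a the one with the largest deficit (492 against 665).

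Ascl2 and the E proteins it pairs with bind E boxes, short DNA elements of the form CANNTG, so the letters before the members' annotated starts are shown here. RefSeq promoter sequence on GRCm38.p6 was at hand for 7 of the 10 members in 8 windows, with 2 windows for Syk; Cd79b, Lyn and Blk had no entry. The table's starts coincide with the outer end of the gene except in Syk, where they lie 827 and 14272 bases inside its annotated span, and Btk, where it lies 488 bases inside. Within the 250 bases before each start, CAGGTG or its reverse complement CACCTG stood in 7 of 8 windows and in 6 of 7 genes, all except Btk. For scale, 17.2% of all 32851 windows and 19.4% of all 27025 genes in the table held it. The stretches are shown because this is the element the promoters share, each with 10 bases either side, 5′ to 3′ on the strand of the gene, and the capitals mark the E box.
Cd79a (chr7:24897333-24897358, plus strand): gtggccagccCAGGTGcagggcagtt
Syk, upstream start (chr13:52583227-52583252, plus strand): aggacgcggcCACCTGcccaggtagg
Syk, downstream start (chr13:52596728-52596753, plus strand): cctccactggCAGGTGtttgtttggg
Blnk (chr19:40994366-40994391, minus strand): cctggcaacaCACCTGatcataaaag
Plcg2 (chr8:117498118-117498143, plus strand): cgcggccaggCAGGTGgtactggggc
Pik3ap1 (chr19:41385174-41385199, minus strand): gccgcgcgtgCAGGTGccacgcggag
Vav1 (chr17:57278929-57278954, plus strand): cttagttcagCAGGTGcccaggtctg

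The box began 154 bases before the start in Cd79a, 161 in Vav1, 160 in Blnk, 147 in Plcg2, 87 in Pik3ap1, and 200 and 144 before the upstream and downstream starts of Syk. These genes include the member lowest with Ascl2 (Cd79a), the highest (Syk) and members near 0 (Blnk and Vav1). With Btk alone lacking the box, the members give no contrast between genes with and without it. Across all genes with a value of at least 1 and a promoter entry, the median log2 ratio was -0.05 for the 1527 that held the box and -0.02 for the others among 8629. The element CAGCTG, a form preferred by factors of the Ascl family, was in none of the 8 windows, against 13.0% of all windows. Any CANNTG was in 8 of 8 windows and 66.2% of all windows, and the sets overlap, since CAGGTG is a CANNTG. The core of ETS factor sites, GGAAG, on either strand, was in 5 of 7 genes and 66.9% of all genes, and the octamer ATGCAAAT, on either strand, was in Blnk alone and in 1.81% of all genes. These 5 elements were all that were searched, and they were chosen with the values known. A match of letters is not a binding site.

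The 250 bases before the outer start are shown in full for Cd79a, the member with the lowest ratio, and for Vav1, a member near 0, with every CANNTG in capitals.
Cd79a (chr7:24897247-24897496, plus strand): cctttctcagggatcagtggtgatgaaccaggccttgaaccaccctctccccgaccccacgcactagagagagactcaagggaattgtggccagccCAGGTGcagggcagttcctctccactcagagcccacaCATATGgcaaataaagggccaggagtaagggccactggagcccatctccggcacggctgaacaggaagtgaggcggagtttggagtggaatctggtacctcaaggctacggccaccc
Vav1 (chr17:57278850-57279099, plus strand): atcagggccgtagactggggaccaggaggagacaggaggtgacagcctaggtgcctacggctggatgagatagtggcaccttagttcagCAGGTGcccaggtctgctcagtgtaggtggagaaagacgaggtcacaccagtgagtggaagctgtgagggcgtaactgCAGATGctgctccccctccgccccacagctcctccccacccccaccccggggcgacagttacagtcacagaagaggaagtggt

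The signal subunits were the most abundant members and were both lower in value with Ascl2. Cd79a (ENSMUSG00000003379, chr7:24897497-24901858), which encodes the alpha subunit, had an abundance of 492 in the RVKM-Ascl2 library and 665 in the RVKM-Empty library, a log2 ratio of -0.43. Cd79b (ENSMUSG00000040592, chr11:106311341-106314562), the beta subunit, was 626 with Ascl2 and 748 with the empty vector, a log2 ratio of -0.25. Among all listed genes Cd79b ranked 145 with Ascl2 and 121 with the empty vector, and Cd79a ranked 176 and 135 in the same order. Of the genes with a value of at least 1, 17.7% lay further from 0 than Cd79a and 40.9% further than Cd79b. The heterodimer needs both chains, and the ratio of Cd79b to Cd79a, which no scaling between libraries can move, was 1.27 in the RVKM-Ascl2 library and 1.12 in the RVKM-Empty library. Together the pair made up 0.146% of the summed values with Ascl2 and 0.188% with the empty vector. The other 8 members summed to 403 with Ascl2 and 410.2 with the empty vector.

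These subunit genes are also the shortest members on the genome, at 3222 bases for Cd79b and 4362 for Cd79a, whereas the others span 41295 (Btk) to 136868 bases (Plcg2). Short genes were lower with Ascl2 in general. The median log2 ratio was -0.19 over 1725 genes of up to 5000 bases and 0.06 over 3253 genes of at least 40000 bases, leaving immunoglobulin variable segments out of the short set. With the running median of the ratio over span taken off, Cd79a was at -0.27 and Cd79b at -0.09. The part of span in these values was not tested further.

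**Figure D2:**
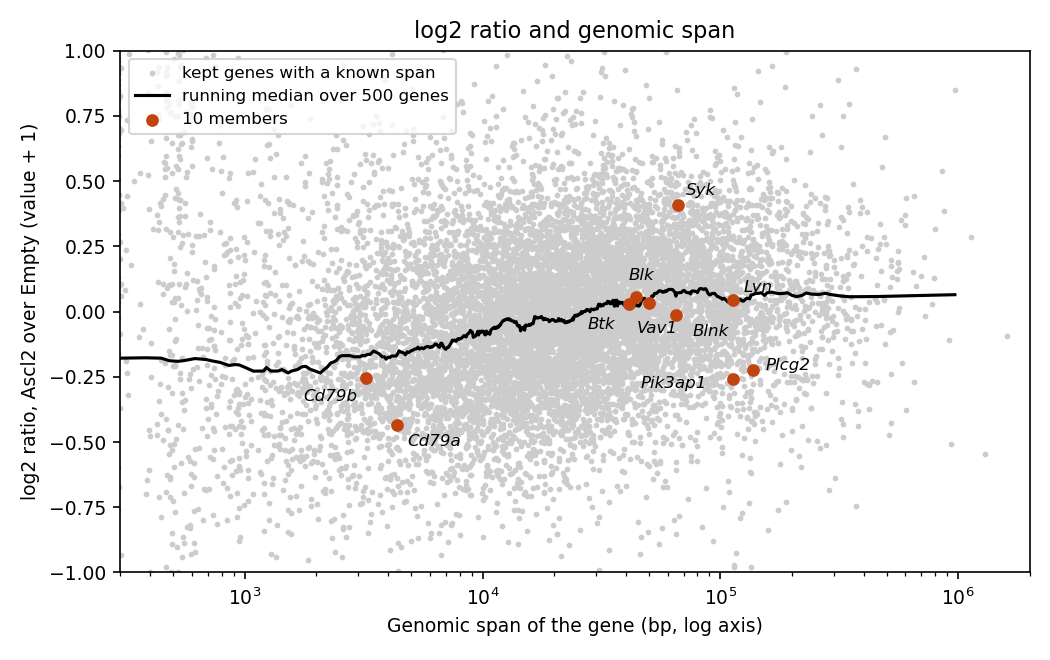
log2 ratio of Ascl2 over Empty (values plus 1) against the genomic span in bases (log axis) for genes with a value of at least 1 (grey), the running median over 500 genes (line) and the 10 members (coloured). The line lies at -0.17 at the spans of Cd79a and Cd79b and at 0.03 to 0.07 at those of the other members; 230 genes fall outside the plotted range of -1 to 1.

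The Src family kinases that start the cascade had nearly the same values in both libraries. Lyn (ENSMUSG00000042228, chr4:3678068-3791612), which both activates the receptor and serves its inhibitory pathways, was 24.9 with Ascl2 and 24.1 with the empty vector. Blk (ENSMUSG00000014453, chr14:63372837-63417187), a kinase largely restricted to the B lineage, was 58.4 with Ascl2 and 56.1 with the empty vector. The log2 ratios were 0.04 for Lyn and 0.06 for Blk, and 87.9% and 84.3% of all genes with a value of at least 1 lay further from 0. The ratio of Blk to Lyn was 2.34 in the RVKM-Ascl2 library and 2.32 in the RVKM-Empty library.

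At the next step, Syk had a higher value with Ascl2 and Btk nearly the same value in both libraries. Syk (ENSMUSG00000021457, chr13:52582610-52648792), which docks on the phosphorylated subunits, was 35.7 in the RVKM-Ascl2 library and 26.7 in the RVKM-Empty library. Its log2 ratio of 0.41 was the highest of the 10, and 20.1% of all genes with a value of at least 1 lay further from 0. Btk (ENSMUSG00000031264, chrX:134542334-134583628), the Tec family kinase mutated in X-linked agammaglobulinaemia, was 32.7 with Ascl2 and 32.1 with the empty vector, a log2 ratio of 0.03. The ratio of Btk to Syk was therefore 0.916 in the RVKM-Ascl2 library and 1.20 in the RVKM-Empty library, so the order of these kinases differed between the libraries. Myeloid cells also make Syk, and 6 of the 7 measured myeloid markers had higher values with Ascl2. Over all genes, 5945 of the 12283 that reached 1 were higher. Among the 6, Adgre1 was nearly level at 5.37 with Ascl2 and 5.30 with the empty vector. Csf1r (1.06 and 0.780) and Cd14 (1.63 and 1.18) were low in both. The median log2 ratio of the 7 markers was 0.21. Fcer1g was 9.83 with Ascl2 and 5.71 with the empty vector, and the 1 marker with a lower value, Cd68, was 10.8 and 16.2. Itgam had no value here. Their part in the Syk value was not tested.

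Of the adaptors, Blnk was level and Pik3ap1 lower in value. Blnk (ENSMUSG00000061132, chr19:40928927-40994221), the scaffold that SYK phosphorylates, was 100.02 with Ascl2 and 100.86 with the empty vector, a log2 ratio of -0.01, and was the most abundant member after the signal subunits. Pik3ap1 (ENSMUSG00000025017, chr19:41272541-41385102) was 37.8 with Ascl2 and 45.5 with the empty vector, a log2 ratio of -0.26. The ratio of Pik3ap1 to Blnk was 0.378 in the RVKM-Ascl2 library and 0.451 in the RVKM-Empty library.

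Among the effectors, Plcg2 was lower in value with Ascl2 and Vav1 nearly level. Plcg2 (ENSMUSG00000034330, chr8:117498275-117635142), the phospholipase that makes inositol trisphosphate and diacylglycerol, was 71.1 with Ascl2 and 83.3 with the empty vector, a log2 ratio of -0.22. Vav1 (ENSMUSG00000034116, chr17:57279100-57329236), an exchange factor for Rac GTPases, was 42.5 with Ascl2 and 41.6 with the empty vector, a log2 ratio of 0.03. The ratio of Vav1 to Plcg2 was 0.598 in the RVKM-Ascl2 library and 0.499 in the RVKM-Empty library. Plcg2 and Pik3ap1 are among the longest members, and with the trend over span taken off they were at -0.29 and -0.31. Next to these, Cd79a was at -0.27 and Cd79b at -0.09. The order of the lower members therefore depends on that correction, and with it Cd79a was no longer the lowest.

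**Figure D3:**
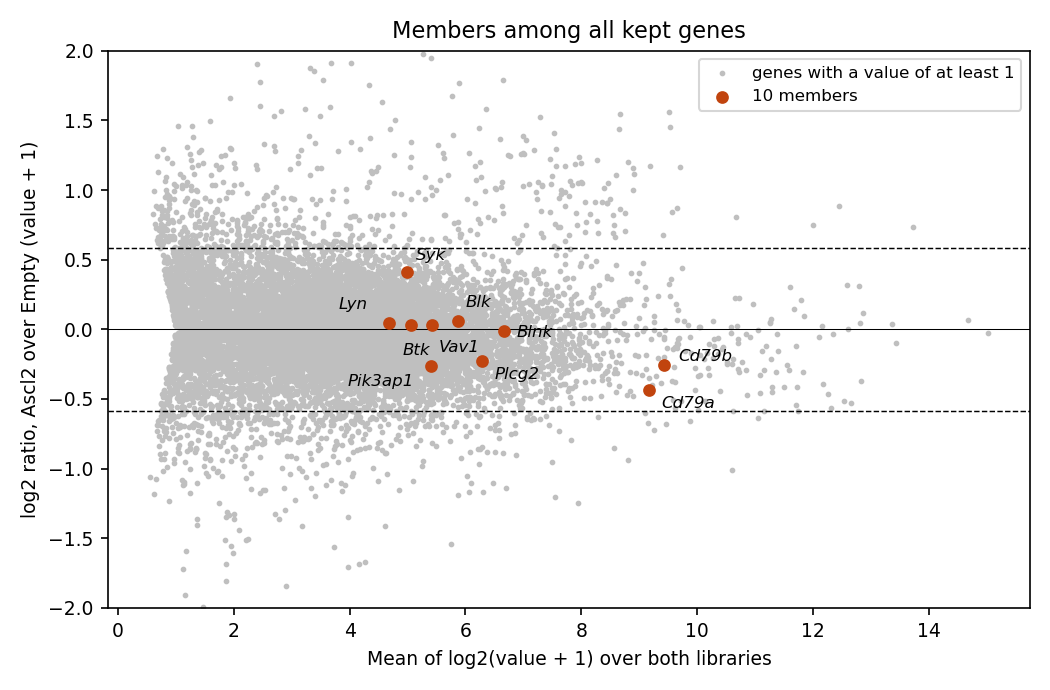
log2 ratio of Ascl2 over Empty (values plus 1) against the mean log2 level of both libraries for genes with a value of at least 1 (grey) and the 10 members (coloured); dashed lines mark 1.5-fold. All members lie between the dashed lines, with Syk at 0.41 and Cd79a at -0.43 as their extremes; 28 genes fall outside the plotted range of -2 to 2.

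By level, the order in the RVKM-Ascl2 library was Cd79b, Cd79a, Blnk, Plcg2, Blk, Vav1, Pik3ap1, Syk, Btk and Lyn. In the RVKM-Empty library it was Cd79b, Cd79a, Blnk, Plcg2, Blk, Pik3ap1, Vav1, Btk, Syk and Lyn. Only neighbours changed places, namely Vav1 with Pik3ap1 and Syk with Btk, and without replicates it cannot be said whether such neighbours differ. Levels of different genes can be compared only if the deposited values are scaled for gene length, which is assumed here and not stated by the submitters.

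Most members belong to small gene families, and the values show which relatives these cells carried. In the Src family Blk led, followed by Fyn at 35.9 with Ascl2 and 43.5 with the empty vector, then Lyn, then Lck, the kinase best known from T cells, at 17.8 and 21.7 in the same order. Fgr, Yes1 and Src stayed between 1.15 and 1.89 with Ascl2 and between 0.919 and 2.47 with the empty vector. Syk stood far above its T cell relative Zap70, which was 0.182 with Ascl2 and 0.805 with the empty vector. Tec, the relative of Btk, was 18.1 with Ascl2 and 17.8 with the empty vector, and Txk and Bmx had no value here.

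**Figure D4:**
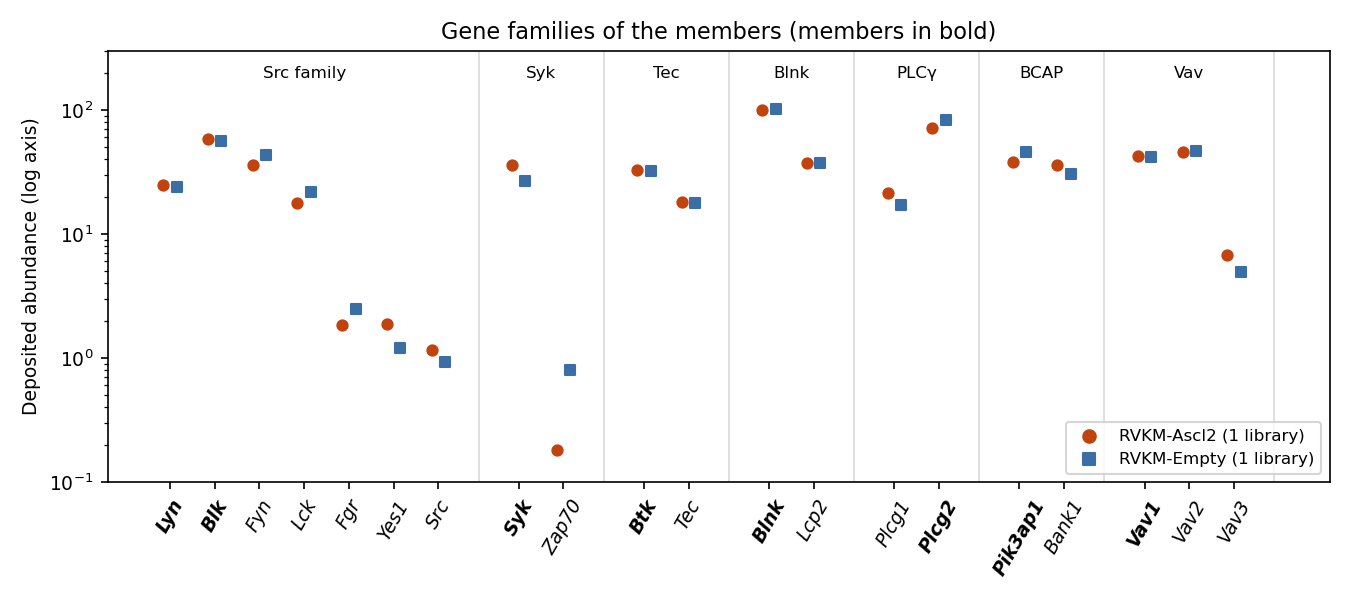
Abundance (log axis) of the measured genes in 7 families that hold a member (names in bold) in the RVKM-Ascl2 library (circles) and the RVKM-Empty library (squares), 1 library each. Blk, Syk, Btk, Blnk, Plcg2 and Pik3ap1 lead their families in both libraries, while Vav2 lies slightly above Vav1.

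Lcp2, the adaptor that does the work of Blnk in T cells, was 37.6 with Ascl2 and 37.0 with the empty vector, below Blnk in both. Plcg1 was 21.2 with Ascl2 and 17.2 with the empty vector, and Plcg2 was higher than Plcg1 in both. Vav2 was 45.4 with Ascl2 and 46.7 with the empty vector, close to Vav1, whereas Vav3 was 6.78 and 4.90. Bank1, a B cell scaffold related to Pik3ap1, was 36.0 with Ascl2 and 30.6 with the empty vector, so the pair had nearly equal values with Ascl2 (Pik3ap1 37.8) and less equal ones with the empty vector (Pik3ap1 45.5). Of the other subunits that signal through paired tyrosines, the Fc receptor gamma chain gene Fcer1g was 9.83 with Ascl2 and 5.71 with the empty vector. Tyrobp was 8.85 and 7.62. Both are small beside Cd79a and Cd79b.

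Other genes of the pathway were read from 6 lists with 90 genes, of which 88 were measured and 87 reached a value of 1. Of these 87, 2 were at least 1.5-fold higher with Ascl2 and 3 at least 1.5-fold lower, and those 2 were also at least 2-fold higher, while none was at least 2-fold lower. Over all genes that reached 1, 5.01% were at least 1.5-fold higher and 4.31% at least 1.5-fold lower. With counts this small, the 1.5-fold result over the 6 lists together is not read as differing from the background. At 2-fold the background was 1.53% higher and 0.716% lower, and a count of 2 genes is not read as a result about the lists. Their median log2 ratio was 0.00, with 43 above 0 and 44 below.

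Grb2 and Tab2 had the highest ratios in these lists. Grb2 (ENSMUSG00000059923, chr11:115644045-115708597), an adaptor that links receptors to Ras and that restrains calcium signals in B cells, had an abundance of 185 in the RVKM-Ascl2 library and 53.0 in the RVKM-Empty library. Its log2 ratio was 1.79, and 32 of 12283 genes had a higher one. Tab2 (ENSMUSG00000015755, chr10:7905648-7956255), which joins the TAK1 kinase to ubiquitin chains on the way to NF-kB, was 75.6 with Ascl2 and 18.4 with the empty vector, a log2 ratio of 1.98, and 24 genes had a higher one. Grb2 and Tab2 overlap 0 other RefSeq genes. With 1 library per group these differences have no replicate check.

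**Figure D5:**
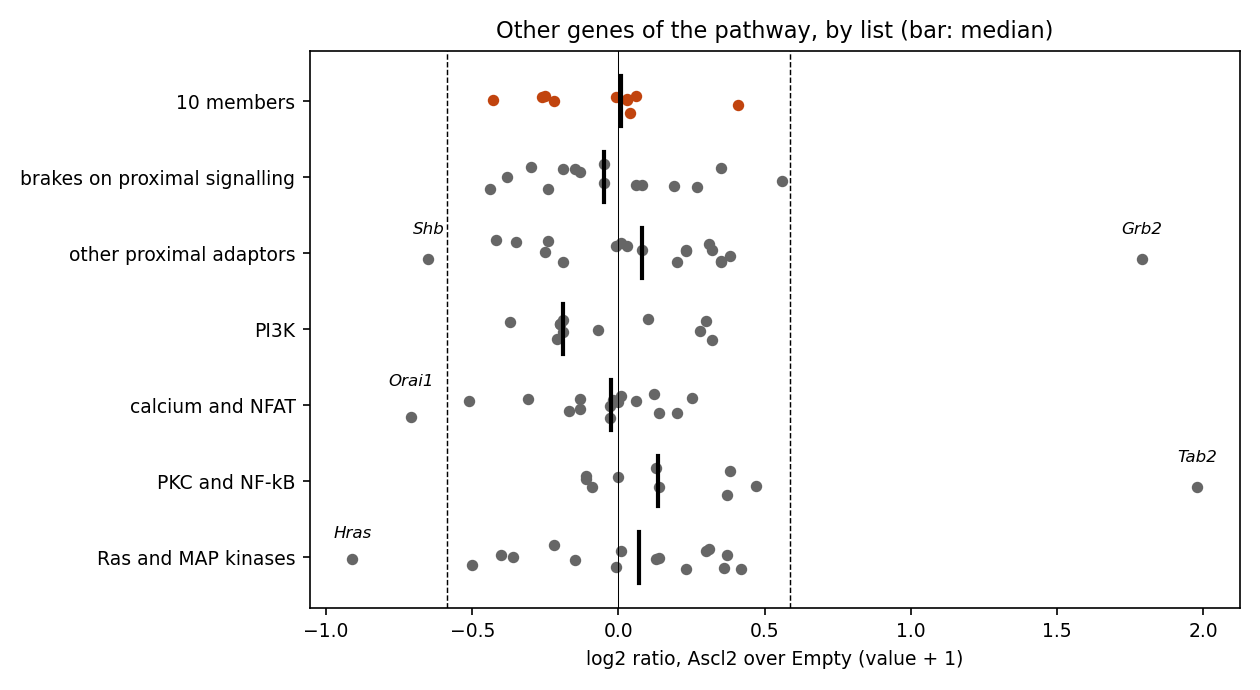
log2 ratio of Ascl2 over Empty (values plus 1) for the 10 members (top, coloured) and for the measured genes of 6 pathway lists with a value of at least 1 (grey); bars are medians and dashed lines mark 1.5-fold. Genes past 1.5-fold are named, and Grb2 (1.79) and Tab2 (1.98) lie far to the right of all others.

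Among the other adaptors Shb was 7.88 with Ascl2 and 12.9 with the empty vector (log2 ratio -0.65), while Swap70, at 182 and 172, and Lat2, at 74.2 and 73.8, were close between libraries. In the phosphoinositide 3-kinase list no gene was past 1.5-fold, and Pik3cd, the catalytic subunit most used by B cells, was 65.7 with Ascl2 and 75.8 with the empty vector. In the calcium list Orai1, the pore of the store-operated calcium channel, was 10.3 with Ascl2 and 17.4 with the empty vector (-0.71), while Ppp3r1, a calcineurin subunit, was 108 in both. In the Ras list Hras was 8.53 with Ascl2 and 16.9 with the empty vector (-0.91), just short of 2-fold. Hras was at -0.74 with the span trend taken off and at -0.70 with a pseudocount of 5, still past 1.5-fold. Shb (-0.48) and Orai1 (-0.55) drop below 1.5-fold with a pseudocount of 5, and Shb (-0.57) also with sums equalised without immunoglobulin genes and Pcdh15.

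None of the 15 genes listed as brakes on the chain was past 1.5-fold, which at background shares of 5.01% and 4.31% is not read as a result about the brakes. Grb2, which also restrains calcium signals, was counted with the other adaptors and not in this list (log2 ratio 1.79). Nearest was the phosphatase gene Ptpn22, at 24.3 with Ascl2 and 16.2 with the empty vector (log2 ratio 0.56), which passes 1.5-fold with a pseudocount of 0.1 (0.59) or with sums equalised without immunoglobulin genes and Pcdh15 (0.65). Csk, which holds Src family kinases inactive, was 148 with Ascl2 and 169 with the empty vector. The phosphatase gene Ptpn6 (SHP-1) was 137 with Ascl2 and 161 with the empty vector, and the lipid phosphatase gene Inpp5d (SHIP-1) was 56.5 and 77.2. Over the list the median ratio was -0.05 on the log2 scale. The lists for calcium and NFAT (-0.02), other adaptors (0.08), protein kinase C and NF-kB activation (0.13), and Ras and MAP kinases (0.07) had medians within 0.2 of 0. The median of the phosphoinositide 3-kinase list was -0.19, also within 0.2 of 0. Of its 11 genes 7 lay below 0 and 4 above. Over all 12283 genes that reached 1, 6338 lay below 0 and 5945 above, so the 7 of 11 is not read as a result about the list.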

How the data were processed

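RNA of 1 RVKM-Ascl2 and 1 RVKM-Empty library of infected B cells was compared; groups came from the sample titles. Each deposited file gives 1 signal value per gene. Nothing states the name of the unit, the quantifier, the gene models or the use of strand. The submitters' processing notes name mm10, Trim Galore, Bowtie2, Picard and MACS2 with no versions or roles. Of the values under 1, 98.5% with Ascl2 and 99.1% with the empty vector were distinct, whereas whole reads scaled for depth alone would repeat, so values were taken as scaled for length too. No value was 0.

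Log2 ratios used a pseudocount of 1, and background counts used genes that reached 1 in either library. No count model or p-value was used, because the values are not counts and each group has 1 library. Depth is unknown, so no counting interval is given. Names and spans came from RefSeq tables on GRCm38.p6, and 13752 of 13792 identifiers had a symbol. RefSeq genes that overlap Lyn, Blk and Pik3ap1 had no value here. All 10 members were named, and from each list genes past 1.5-fold, the most abundant ones or relatives of members. Inpp5d, Pik3cd, Lat2, Ppp3r1 and the myeloid genes were chosen after their values were seen. Some genes are not reported here and were left out of the lists. Members and lists were chosen with earlier results of these data known. Fold calls and the span correction were tested on simulated data with counting noise at an assumed depth. The planted fold differences were larger than that of any member, so the error of the members' ratios was not tested. Python 3.11.15, numpy 2.4.6, pandas 2.3.3, scipy 1.17.1 and matplotlib 3.10.9 were used.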

Additional observations from a re-analysis of the deposited data

How the results depend on the processing

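Under 6 other settings (pseudocounts of 0.1 and 5, 3 rescalings of the Ascl2 library and removal of the span trend) no member passed 1.5-fold. Cd79a, Cd79b, Plcg2 and Pik3ap1 stayed below 0 and Syk above 0 in all 6, with Cd79a between -0.43 and -0.27 and Syk between 0.34 and 0.50. Without the span trend Cd79b was at -0.09, near Blnk at -0.08, and Pik3ap1 (-0.31) and Plcg2 (-0.29) lay below Cd79a. Blnk ran from -0.08 to 0.08, Btk from -0.01 to 0.12, and Lyn and Vav1 reached 0.00, so none of these 4 has a direction. Grb2 (1.71 to 1.88) and Tab2 (1.78 to 2.07) stayed past 1.5-fold. The members' median of 0.01 was 0.10 when sums without immunoglobulin genes and Pcdh15 were equalised, by construction of that rescaling (log2 factor 0.09), and -0.05 without the span trend.

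Counts over all genes depended on the settings by construction. At 1.5-fold the 615 higher genes became 925 with a pseudocount of 0.1, 253 with 5, 379 with a filter of 5 and 215 with a filter of 20, the last added after the data were seen. The 530 lower genes became 792, 191, 353 and 185 in the same order and 284 without the span trend. With sums equalised without immunoglobulin genes and Pcdh15, the higher genes were 804 and the lower genes 365. At 2-fold the 188 higher genes became 370, 103 and 104, and the 88 lower genes 220, 20 and 27, with pseudocounts of 0.1 and 5 and a filter of 20; the lower genes were 45 without the span trend. Higher genes made up 53.7% of calls at 1.5-fold, 68.8% with equalised sums and 68.1% without the span trend; at 2-fold they made up 68.1%, and 83.3% without the span trend. No paired analysis was possible because each group has 1 library. Depth is unknown, so how much of a difference under 1.5-fold is counting error cannot be given.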

Other observations

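Of the 7 B cell markers measured, 3 had a log2 ratio above 0 and 4 below, with a median of -0.01. Ms4a1, which encodes CD20, was 326 with Ascl2 and 265 with the empty vector, a log2 ratio of 0.30. Cd74, the invariant chain of MHC class II, was 4168 with Ascl2 and 5742 with the empty vector (-0.46). Cd22, an inhibitory lectin, was 353 with Ascl2 and 439 with the empty vector (-0.31), and the tetraspanin gene Cd37 was 413 and 510.2 (-0.31). Pax5, which drives Cd79a transcription, was 97.7 with Ascl2 and 98.4 with the empty vector, Ebf1 was 24.3 and 22.0, and Fcrla was 21.4 and 19.6. With the span trend taken off, Ms4a1 was at 0.33, Cd22 at -0.26, Cd74 at -0.38 and Cd37 at -0.17. The differences have no replicate check.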
